A study of Mus musculus with 12 samples.

Results

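The cytosolic ribosomal protein genes measured here are the genes whose symbols name a protein of the large (Rpl) or small (Rps) subunit, together with the stalk proteins Rplp0 and Rplp2 and the laminin receptor homologue Rpsa. A probe set was a member if the platform annotation gave it exactly 1 symbol of that form, pseudogene symbols being left out. This gave 104 probe sets of the 45101 on the array, and they stood for 48 genes on 17 chromosomes, 26 of them with large-subunit and 22 with small-subunit names. Another 110 probe sets name a ribosomal protein together with other symbols and were left out by that rule, so that genes without a probe set of their own, such as Rpl3, Rpl10, Rplp1 and Rpl5, were not analysed here. Of the members, 100 probe sets of 46 genes passed the filter on dim values; the probe sets of Rpl3l and Rps16 and 1 probe set each of Rps24 and Rps3 did not, and lay at or below the background limit (the highest bacterial control) on all 12 arrays.

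A ribosome contains one copy of almost every ribosomal protein, and the genes for them, scattered over the genome, are usually transcribed at high and matched rates. Their mRNAs begin with a short run of pyrimidines, the TOP motif, through which the growth-regulated kinase mTOR and the binding protein Larp1 set how much of each is translated. In blood formation the stem cell is known for a low rate of protein synthesis and the dividing myeloid progenitor for a higher one, and in human, loss of single ribosomal protein genes causes anaemias such as Diamond-Blackfan anaemia and the 5q- syndrome. FoxO transcription factors act downstream of the PI3K and Akt pathway, the same pathway that activates mTOR.

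The study asked how loss of FoxO1, FoxO3 and FoxO4 alters expression in bone marrow stem cells and myeloid progenitors, with genes of reactive oxygen metabolism in view. There were 12 single-colour Affymetrix 430 2.0 mouse arrays in 4 groups of 3. FoxO-deficient myeloid progenitors and FoxO-deficient LSK cells came from Mx-Cre+ mice, wild-type myeloid progenitors and wild-type LSK cells from Mx-Cre- mice, and mice of both kinds carried LoxP-flanked FoxO1, FoxO3 and FoxO4 alleles. LSK names the lineage-negative, Sca-1+, Kit+ fraction that holds the stem cells. The Mx promoter is induced by interferon, only the deficient groups carried the Cre transgene, and the effects of the transgene and of FoxO loss cannot be told apart. Mice were pooled before sorting and amplification was done in triplicate; whether separate pools lay behind the 3 arrays is not stated in the labels. The p-values therefore measure only the spread between arrays, which may be technical. In these bulk samples, fewer cells of a type and less RNA per cell cannot be told apart.

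Foxo4 checked the genotype labels: its normalized intensity was 59.1, 59.3 and 61.3 in FoxO-deficient myeloid progenitors, against 350, 309 and 332 in wild-type myeloid progenitors, and 67.2, 93.8 and 100 in FoxO-deficient LSK cells, against 347, 366 and 479 in wild-type LSK cells (limma, adjusted p = 0.000114 and 0.00162). The brightest Foxo1 probe set was lower on average in FoxO-deficient cells. Its log2 change did not pass the test in myeloid progenitors (-0.90, adjusted p = 0.609) or in LSK cells (-1.94, adjusted p = 0.263). On array 2, a wild-type LSK array, it read 265, against 53.8 and 79.5 on arrays 1 and 3. The other Foxo1 probe sets did not all go the same way. Foxo3 averaged 2414 in FoxO-deficient and 1860 in wild-type myeloid progenitors, and 2828 in FoxO-deficient and 2421 in wild-type LSK cells. Whether the Foxo3 and Foxo1 probe sets lie in the deleted part was not tested. Of 7 stem cell markers with a probe set, 6 were called lower (adjusted p under 0.05) in myeloid progenitors against LSK cells in each genotype, and Kit was not called. Of 9 myeloid progenitor markers, 8 were called higher in each. Csf1r rose too but was not called (3.28 ± 1.51 in FoxO-deficient and 3.38 ± 1.51 in wild-type cells, adjusted p = 0.166 and 0.147). Of all genes, 19.6% were called in FoxO-deficient and 21.4% in wild-type cells, in either direction. Lists for other cell types moved with the cell type too: 3 erythroid markers summed to between 6072 and 6392 in FoxO-deficient and between 7139 and 7607 in wild-type myeloid progenitors, against 3263 to 3370 in FoxO-deficient and 1674 to 3780 in wild-type LSK cells, with Hba-a1 not above the background limit on any LSK array or any FoxO-deficient myeloid progenitor array. The 6 late neutrophil markers summed to between 6135 and 6431 in FoxO-deficient and between 4378 and 4504 in wild-type myeloid progenitors, against 8211 to 8494 in FoxO-deficient and 5751 to 7753 in wild-type LSK cells. The 4 basophil and mast cell markers summed to between 810 and 854 in FoxO-deficient and between 490 and 585 in wild-type myeloid progenitors, against 226 to 275 in FoxO-deficient and 55.6 to 171 in wild-type LSK cells. Mcpt8 of that list was also called higher with FoxO loss in LSK cells (2.34 ± 0.21, adjusted p = 0.0019). With FoxO loss the stem cell marker Tek was called lower in LSK cells (-1.29 ± 0.17, adjusted p = 0.0184) and in myeloid progenitors (-1.11 ± 0.17, adjusted p = 0.00853). The late neutrophil marker Camp was called higher in both (1.08 ± 0.16 and 0.80 ± 0.16, adjusted p = 0.0311 and 0.0401). The erythroid marker Car1 was called lower in LSK cells (-0.89 ± 0.14, adjusted p = 0.0457). The 4 monocyte markers with a probe set summed to between 358 and 408 in FoxO-deficient and between 606 and 724 in wild-type myeloid progenitors, against 106 to 119 in FoxO-deficient and 115 to 543 in wild-type LSK cells, and with FoxO loss Cd14 fell in myeloid progenitors and Ccr2 in LSK cells (adjusted p = 0.000102 and 0.000936). Of 5 T and NK cell markers, Nkg7 rose in myeloid progenitors in both genotypes (1.33 ± 0.34 in FoxO-deficient and 1.79 ± 0.34 in wild-type cells, adjusted p = 0.0207 and 0.00476), and Cd3d, Cd3e and Cd4 were not above the limit on any FoxO-deficient myeloid progenitor array. Mature B cell and stromal markers summed to at most 162 and 62.3 on every array. The part of these cells in the differences below was not tested.

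Array 2, a wild-type LSK array, stood apart. The 3' and 5' probe sets of Gapdh read 3165 and 9.2 on it, a ratio of 344, and on the other 11 arrays the ratio was between 1.77 and 2.37. Its correlation with its group mates over all probe sets was 0.867 and 0.872, against 0.917 to 0.935 for the other pairs within groups. For many of the results that it moves, the value without it is given beside the first.

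Promoter sequence is shown for 9 genes, because the results turn on 5 of them and the other 4 are members whose brightest probe sets stayed level. Rps27l, Rpl7l1 and Rpl12 are the genes that rose in FoxO-deficient myeloid progenitors against FoxO-deficient LSK cells, Rps6 and Rpl14 separated groups without passing the test on all 12 arrays, and Rplp2, Rps18, Rpl35 and Rps10 are the level ones. Each line holds the 80 bases from 60 before to 20 after the annotated start, from RefSeq on GRCm38.p6 (the first listed start of Rps27l), in the direction of transcription. Capitals mark an oligopyrimidine tract near the start (a C followed by at least 6 further C or T, beginning within 20 bases of the start) or the letters CCGGAAGT, the ETS family core, on either strand. Where several stretches met the definition of a tract, only that beginning nearest the start is in capitals. A run of pyrimidines can therefore continue before the capitals, and other such stretches stay in small letters.
Rps27l (chr9:66946026-66946105, plus strand): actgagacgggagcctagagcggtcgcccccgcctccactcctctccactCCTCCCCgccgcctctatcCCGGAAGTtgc
Rpl7l1 (chr17:46782637-46782716, minus strand): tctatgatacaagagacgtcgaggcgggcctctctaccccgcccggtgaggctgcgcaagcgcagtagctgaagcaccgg
Rpl12 (chr2:32961652-32961731, plus strand): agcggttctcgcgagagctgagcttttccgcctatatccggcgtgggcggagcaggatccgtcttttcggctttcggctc
Rps6 (chr4:86857348-86857427, minus strand): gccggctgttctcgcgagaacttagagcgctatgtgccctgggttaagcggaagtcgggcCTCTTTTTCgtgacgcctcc
Rpl14 (chr9:120571457-120571536, plus strand): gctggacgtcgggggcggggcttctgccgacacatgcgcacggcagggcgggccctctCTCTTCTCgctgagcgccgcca
Rplp2 (chr7:141447591-141447670, plus strand): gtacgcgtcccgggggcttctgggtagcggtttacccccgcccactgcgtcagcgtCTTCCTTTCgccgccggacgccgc
Rps18 (chr17:33955646-33955725, minus strand): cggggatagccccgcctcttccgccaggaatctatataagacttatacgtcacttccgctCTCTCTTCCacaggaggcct
Rpl35 (chr2:39005112-39005191, minus strand): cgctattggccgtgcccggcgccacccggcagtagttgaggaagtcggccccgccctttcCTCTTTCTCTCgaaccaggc
Rps10 (chr17:27635225-27635304, minus strand): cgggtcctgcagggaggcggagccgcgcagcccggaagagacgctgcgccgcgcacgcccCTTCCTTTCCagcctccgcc

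Of the 48 genes, 42 had a promoter in the RefSeq table. An oligopyrimidine tract of that definition was found in 25 of the 42 (59.5%) and in 24.3% of the 17492 protein-coding genes of the table. The ETS core, searched on both strands from 250 bases before to 50 after the start, was found in 10 (23.8%, against 5.69% of all), the YY1 core AAGATGGC in 4 (9.52%, against 3.57%) and the E-box CACGTG, the site bound by Myc, in 4 (9.52%, against 8.91%). The FoxO core TGTTTAC was found in 1 (2.38%, against 3.45%). Among the genes printed, Rpl7l1 and Rpl12 had no tract in this window, while Rps27l had one, with the ETS core just after its start. Rps6, Rpl14 and all 4 level genes had one as well, so the tract was present on both sides of that division. The ETS core was also found in Rps6 and in the level genes Rps18 and Rpl35, further upstream than the printed bases. The core was therefore not particular to Rps27l, and it too was present on both sides. A match of letters describes the sequence only.

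The ribosomal proteins were among the brightest features of these arrays. The brightest probe set of a gene stood for it, and 36 of the 46 genes had a mean normalized intensity of at least 1000 and 32 of at least 3000, with a median position at the 99.7th percentile of all probe sets. Of the 104 probe sets, 89 lay above the background limit on all 12 arrays. Of the 104, 40 carry the suffix _x_at, given to probe sets whose probes can match other transcripts, and 13 of the 46 genes were represented by one. Since ribosomal protein genes have many processed pseudogenes, the source of these signals is uncertain. The level of a gene cannot be set against that of another gene across probe sets.

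**Figure D1:**
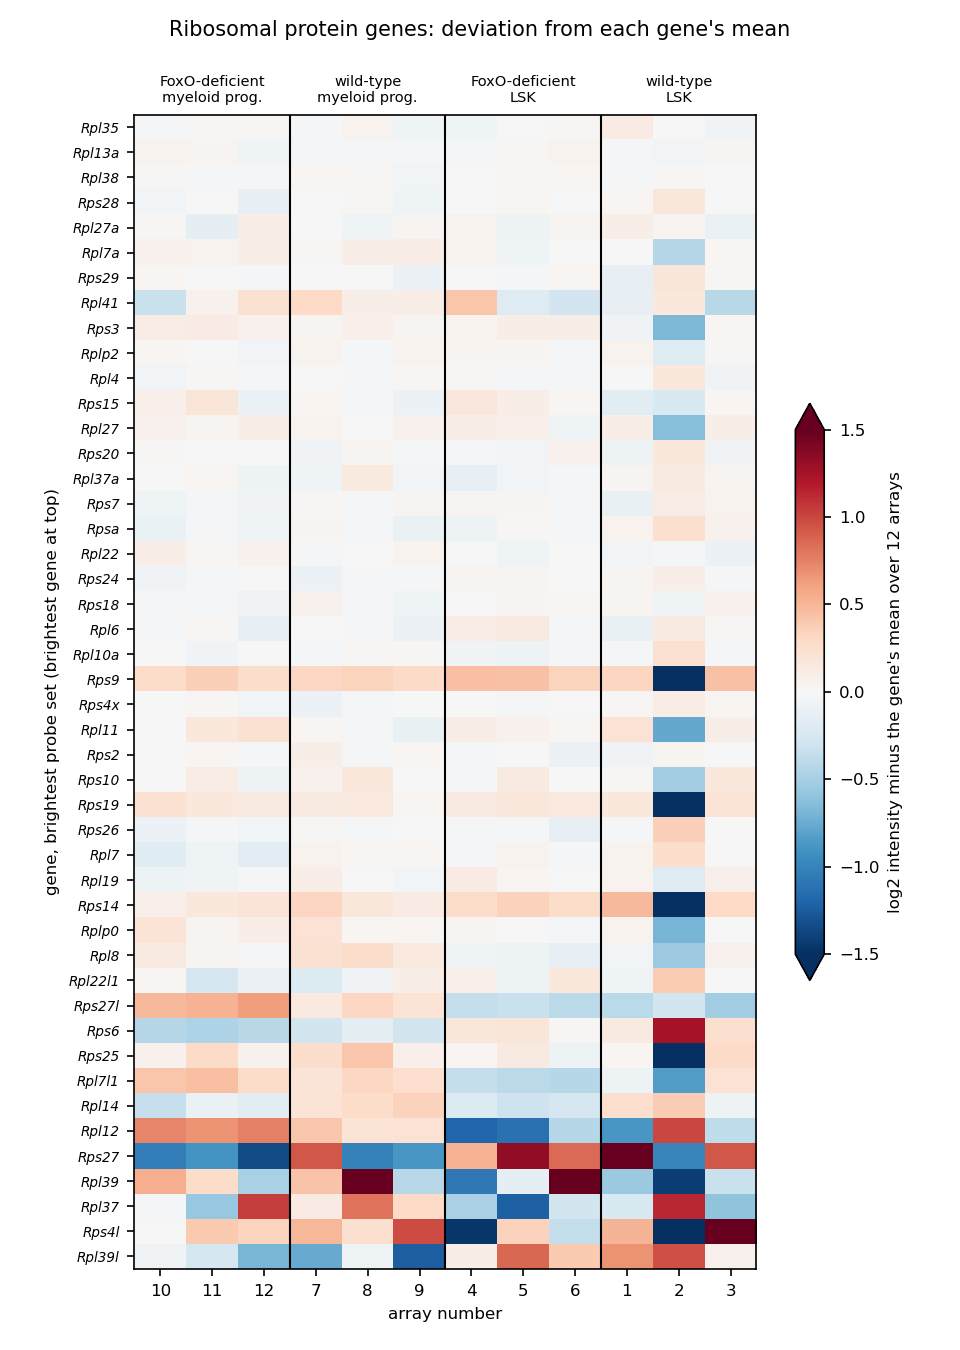
Deviation of each of 46 ribosomal protein genes (rows, brightest probe set, brightest gene at the top) from its own mean over 12 arrays (columns, by group), on a log2 scale shown by colour. Most of the upper rows are pale on 11 arrays, array 2 departs for Rps9, Rps14 and Rps19, and Rps27l is higher on all 6 myeloid progenitor arrays.

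FoxO loss left the ribosomal protein genes without a called change in either cell type. In LSK cells 0 of 46 genes passed the test (limma, adjusted p under 0.05 by Benjamini-Hochberg over all genes), where 0.269% of the 13732 genes tested did, and 1 had an unadjusted p under 0.05, against 11.5% of all genes. In myeloid progenitors 0 of 46 passed, where 1.84% of all genes did, and 2 had an unadjusted p under 0.05, against 12.9%. The test of the difference between the 2 FoxO effects called 0 of 46 (0.859% of all genes), with 0 at an unadjusted p under 0.05 (10.6%). A change that was not called is not thereby shown to be absent. Each probe set tested on its own gave 0 of 100 in LSK cells (0.148% of all probe sets), in myeloid progenitors (1.46%) and for the difference (0.588%). Without array 2, 0 of 46 genes passed in LSK cells (0.989%) and for the difference (3.51%).

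The changes were small as well as uncalled. The median log2 change of the 46 genes was 0.004 in FoxO-deficient against wild-type LSK cells and -0.016 in FoxO-deficient against wild-type myeloid progenitors, and the median absolute change was 0.11 and 0.05, against 0.36 and 0.30 over all genes. Without array 2 the value in LSK cells was 0.053, against 0.26 over all genes. In LSK cells 35 of the 46 genes lay within 0.25 log2 units of 0, against 37.1% of all genes, and in myeloid progenitors 38 did, against 43.5%. Without array 2, 40 did in LSK cells. Neither subunit stood apart: the medians in LSK cells were 0.01 for the 25 large-subunit and 0.004 for the 21 small-subunit genes tested, and in myeloid progenitors -0.005 and -0.027.

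The brightest of the other genes lay close to 0 too. Among the 81 other genes at or above an intensity of 3000, a bound chosen after the data were seen, 82.7% lay within 0.25 log2 units of 0 in LSK cells and 96.3% in myeloid progenitors, close to 87.5% and 100% of the 32 ribosomal protein genes there. At 1000 or more the gap was wider: 65.2% and 80.3% of 940 other genes, against 88.9% and 97.2% of 36 ribosomal protein genes. Quantile normalization gives every array the same set of values, the top included. When each array was only scaled to a common median, the median log2 change of the ribosomal proteins was -0.22 in FoxO-deficient against wild-type LSK cells and -0.16 in FoxO-deficient against wild-type myeloid progenitors, with -0.06 and 0.04 over all genes and -0.06 and -0.05 over the 940 other genes at 1000 or more. The number called stayed at 0 of 46 in both. A common shift of the family and the choice of scaling cannot be told apart here, and the values below are relative to the distribution of each array.

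Rpl14, a protein of the large subunit, separated the genotypes in both cell types, and its probe set is well below the bright members. It read 367, 434 and 418 in FoxO-deficient myeloid progenitors, against 535, 562 and 592 in wild-type myeloid progenitors. In FoxO-deficient LSK cells it read 404, 377 and 391, against 554, 605 and 442 in wild-type LSK cells. All 6 deficient arrays were below all 6 wild-type arrays. The log2 change was -0.47 ± 0.16 (SE) in myeloid progenitors and -0.44 ± 0.16 in LSK cells, and neither passed the test (adjusted p = 0.217 and 0.348). Without array 2 the change in myeloid progenitors passed it (adjusted p = 0.0372), the 1 of 46 genes to do so where 8.88% of all genes did, and that in LSK cells did not (adjusted p = 0.233). The FoxO comparisons in LSK cells and in myeloid progenitors use different arrays, and the difference of their effects was -0.03 ± 0.22 (adjusted p = 0.972).

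In LSK cells 6 of the 46 genes had deficient and wild-type arrays that did not overlap, against 16.8% of all genes, and in myeloid progenitors 7, against 30.8%. Rpl14 and Rps26 were lower in FoxO-deficient cells in both, with log2 changes for Rps26 of -0.17 in LSK cells (-0.05 without array 2) and -0.05 in myeloid progenitors. Besides Rpl14 these were Rpl37a, Rps26, Rps3, Rps4x and Rpsa in LSK cells, each with an absolute log2 change of at most 0.31 (at most 0.10 without array 2), and Rpl12, Rpl7, Rpl8, Rps26, Rps27l and Rps6 in myeloid progenitors. Rps27l averaged 2762 in FoxO-deficient and 2209.85 in wild-type myeloid progenitors, a log2 change of 0.32 ± 0.13 that did not pass the test (adjusted p = 0.339, and 0.0532 without array 2).

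The genes with the highest log2 changes in LSK cells included several that were high only with array 2 in the fit. Rps9, which sits in the body of the small subunit, read 5765, 5726 and 5289 in FoxO-deficient LSK cells, against 5248, 299 and 5686 in wild-type LSK cells, where the low value is that of array 2. Its log2 change was 1.43 ± 0.90 (adjusted p = 0.554) and became 0.03 without that array. Rps14, the gene lost in the human 5q- syndrome, read 3874, 4089 and 3874 in FoxO-deficient LSK cells, against 4493, 485 and 3951 in wild-type LSK cells, and its log2 change behaved alike (0.94, and -0.09 without array 2). Rps19, the gene most often altered in Diamond-Blackfan anaemia, had 0.58 and -0.03, and Rps25 had 0.45 and -0.13.

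Probe sets of 1 gene could differ on array 2. Rps18, often used as an expression control, read 4314 on array 2 with its brightest probe set, against 4643 and 4727 on arrays 1 and 3, while another of its probe sets read 1418, against 4428 and 4612. For Rpl13a, also used as a control, 1 probe set read 5686 on array 2, against 5747 and 5995, and another 616, against 3020.4 and 3038. In all, 21 of 100 member probe sets were more than 1 log2 unit lower on array 2 than the mean of arrays 1 and 3, close to 22.2% of all probe sets past the filter. Among the 68 members with a mean intensity of at least 1000 there were 12 such probe sets on array 2 and 0 on each of the other 11 arrays. The share over all probe sets of that intensity was not counted, so whether bright members differ from other bright probe sets there is not known.

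**Figure D2:**
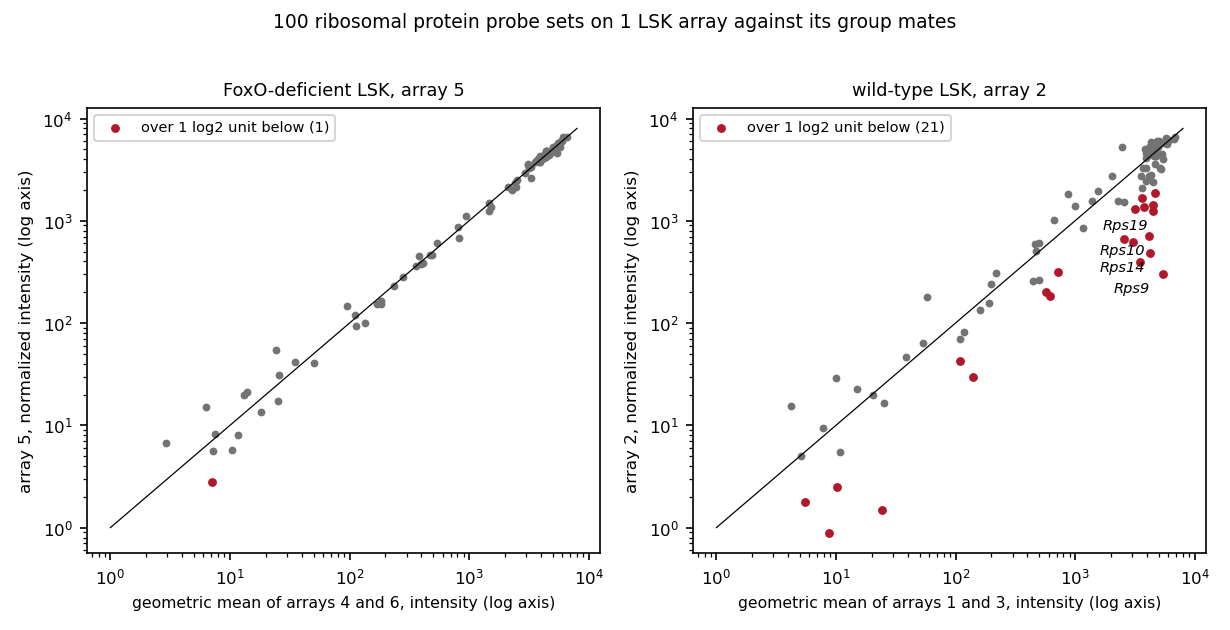
Normalized intensity of 100 ribosomal protein probe sets on 1 array (y, log axis) against the geometric mean of the other 2 arrays of its group (x, log axis), for array 5 of FoxO-deficient LSK cells and array 2 of wild-type LSK cells. Red points lie more than 1 log2 unit below the line of equal values: 1 on array 5 and 21 on array 2, where Rps9, Rps14, Rps10 and Rps19 are marked.

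Between cell types few ribosomal proteins were called. In FoxO-deficient cells 3 of 46 genes passed the test between myeloid progenitors and LSK cells, where 19.6% of all genes did, and all 3 were higher in myeloid progenitors: Rps27l, Rpl12 and Rpl7l1. In wild-type cells 2 of 46 did, where 21.4% of all genes did: Rps27l was higher and Rpl39l lower in myeloid progenitors. The brightest of the other genes were seldom called too. At an intensity of 3000 or more, 0 of 32 ribosomal protein genes passed in each genotype, against 4.94% of 81 other genes in FoxO-deficient and 3.7% in wild-type cells. At 1000 or more, 1 of 36 passed in each (2.78%), against 16.6% and 16.3% of 940 other genes. The median log2 change over the 46 genes was 0.0007 in FoxO-deficient and 0.040 in wild-type cells, and the median absolute change was 0.06 and 0.11 (0.059 in wild-type cells without array 2), against 0.53 and 0.57 over all genes. The comparisons between cell types use the same arrays as those by genotype. The groups did not overlap for 14 genes in FoxO-deficient cells (52.4% of all genes) and for 9 in wild-type cells (35.8%).

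Without array 2 the calls were 5 of 46 in FoxO-deficient cells (38.4% of all genes), with Rps6 and Rps27 added, and 3 of 46 in wild-type cells (34.9%), with Rpl12 and Rps6 added and Rpl39l lost. Under median scaling the ribosomal proteins had a median log2 change of 0.16 in FoxO-deficient and 0.14 in wild-type cells, below the 0.26 and 0.13 of all genes in the first case and beside it in the second. The other genes at 1000 or more had 0.32 and 0.31 under that scaling. Wild-type calls were then 5 of 46, where 24.6% of all genes were called, namely Rpl39l, Rpl7l1, Rpl8, Rplp0 and Rps27l, of which all but Rpl39l were higher in myeloid progenitors.

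Rps27l, a paralog of the small-subunit protein Rps27 and in human a target of p53, was the member that rose in both genotypes. Its brightest probe set read 2655, 2715 and 2923 in FoxO-deficient myeloid progenitors, against 1476, 1506 and 1437 in FoxO-deficient LSK cells. It read 2096, 2349 and 2191 in wild-type myeloid progenitors, against 1431, 1552 and 1322 in wild-type LSK cells. All 6 myeloid progenitor arrays were above all 6 LSK arrays, with array 2 within the range of the LSK arrays. The log2 change was 0.91 ± 0.13 in FoxO-deficient cells (1.88-fold, adjusted p = 0.00115) and 0.63 ± 0.13 in wild-type cells (1.54-fold, adjusted p = 0.00881), and the difference between them did not pass the test (0.28 ± 0.19, adjusted p = 0.672).

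The other 2 probe sets of Rps27l had changes of like size, and 1 of them did not pass in wild-type cells. The second read 1386, 1398 and 1435 in FoxO-deficient myeloid progenitors, against 833, 674 and 819 in FoxO-deficient LSK cells, a log2 change of 0.87 ± 0.21 (adjusted p = 0.0204 over all probe sets). It read 1122, 1335 and 1293 in wild-type myeloid progenitors, against 652, 1028 and 692 in wild-type LSK cells, where 1028 is array 2 (0.69 ± 0.21, adjusted p = 0.0532, and 0.00220 without that array). The third changed by 0.89 ± 0.18 in FoxO-deficient (adjusted p = 0.00965) and 0.73 ± 0.18 in wild-type cells (adjusted p = 0.0258). Rps27l lies on mouse chromosome 9 (GRCm38.p6, bases 66944624 to 66949522). Its call held without each array in turn, and was lost in wild-type cells only when the fit used those 2 groups alone (adjusted p = 0.136).

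Its paralog Rps27 did not follow it. That gene's 1 probe set, far dimmer, read 28.7, 31.5 and 23.2 in FoxO-deficient myeloid progenitors, against 84.7, 148 and 106 in FoxO-deficient LSK cells, and the groups did not overlap. The log2 change of -1.995 ± 0.67 missed the threshold (adjusted p = 0.0643) and passed without array 2 (adjusted p = 0.0127). Wild-type arrays overlapped, at 112, 29.2 and 32.2 in myeloid progenitors, against 177, 29.7 and 112 in LSK cells (-0.83 ± 0.67, adjusted p = 0.426, and -1.58 ± 0.55, adjusted p = 0.0559, without array 2).

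**Figure D3:**
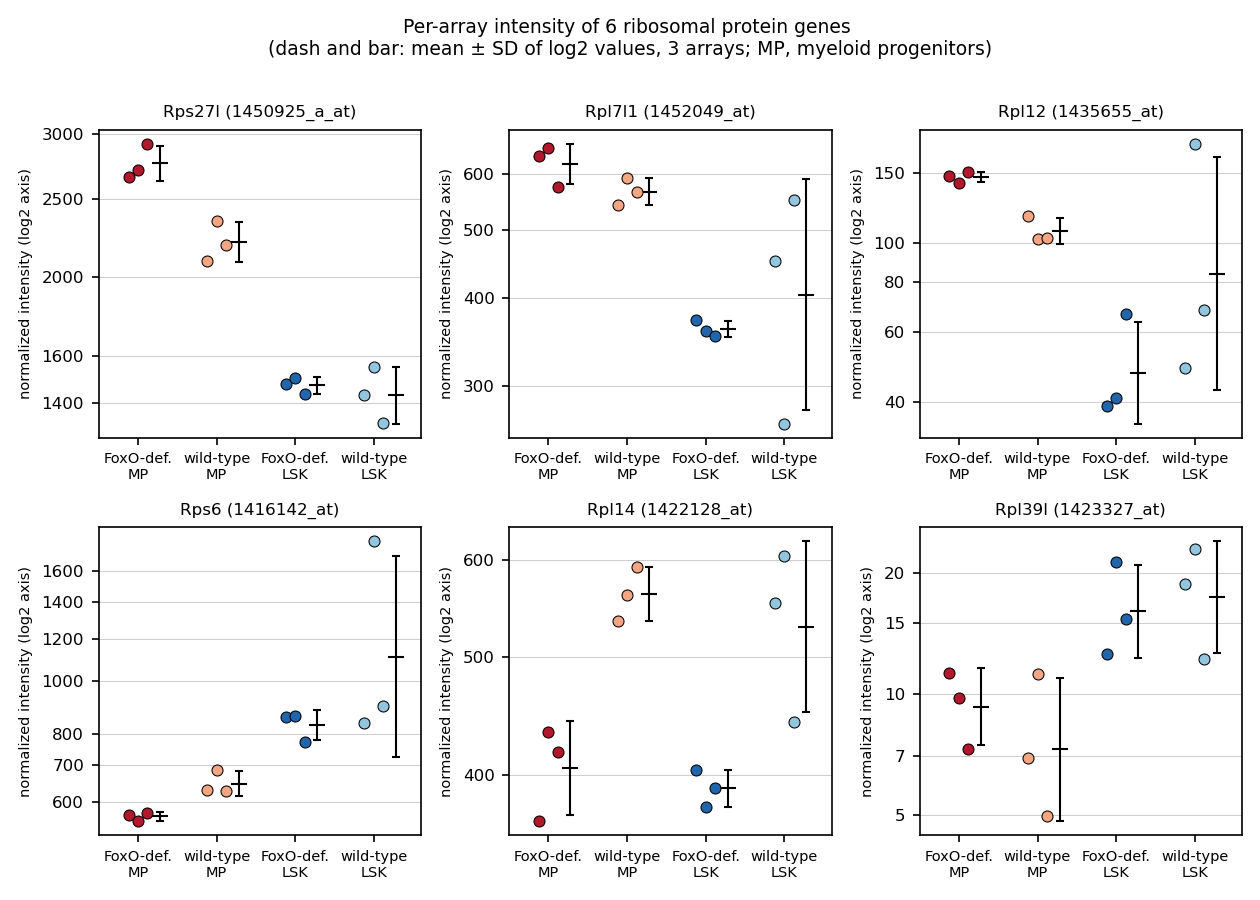
Normalized intensity (y, log2 axis) of 6 ribosomal protein genes on each array, by group (MP, myeloid progenitors), with the mean ± SD of log2 values of 3 arrays beside the points. Rps27l is higher in all 6 myeloid progenitor arrays than in all 6 LSK arrays, Rpl14 is lower in all 6 FoxO-deficient than in all 6 wild-type arrays, and the highest wild-type LSK point for Rpl12, Rps6 and Rpl39l is array 2.

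Rpl7l1, a paralog of Rpl7, read 636, 653 and 575 in FoxO-deficient myeloid progenitors, against 372, 359 and 354 in FoxO-deficient LSK cells, and these groups did not overlap. Its log2 change was 0.78 ± 0.24 (1.72-fold, adjusted p = 0.0455). The call is narrow: it was lost on leaving out any array other than 2 or 3, the adjusted p reaching 0.182 over all alternatives. In wild-type cells the values were 543, 592 and 566 in myeloid progenitors, against 451, 266 and 552 in LSK cells, and the groups overlapped (0.49 ± 0.24, adjusted p = 0.182, and 0.18 ± 0.11, adjusted p = 0.257, without array 2). Of its other 2 probe sets, 1 rose in FoxO-deficient myeloid progenitors (0.95 ± 0.19, adjusted p = 0.00983) and 1 did not pass (0.40 ± 0.20, adjusted p = 0.218).

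Rpl7 itself was not called, with 3466 in FoxO-deficient myeloid progenitors and 3803 in FoxO-deficient LSK cells (-0.13 ± 0.13, adjusted p = 0.542). For the pair Rpl22 and Rpl22l1, the log2 changes between cell types were at most 0.08 and 0.16 in absolute value in each genotype. Rpl22 is a protein of the large subunit that T cell development in the mouse needs, and its dim probe set had larger differences. That probe set read 272, 220.4 and 307 in FoxO-deficient myeloid progenitors, against 464, 467 and 510.5 in FoxO-deficient LSK cells, and did not pass on all arrays (-0.86 ± 0.37, adjusted p = 0.160, and 0.00526 without array 2).

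Rpl12, which sits at the base of the stalk of the large subunit, read 148, 142 and 151 in FoxO-deficient myeloid progenitors, against 39.1, 40.9 and 66.3 in FoxO-deficient LSK cells, with no overlap. The log2 change was 1.63 ± 0.41 (3.1-fold, adjusted p = 0.0199), and leaving out any 1 of arrays 4, 5, 10, 11 and 12 ended the call, with an adjusted p of at most 0.0708. Wild-type myeloid progenitors read 117, 102 and 103, against 48.7, 178 and 68.1 in wild-type LSK cells, the high value being array 2. The change there was 0.36 ± 0.41 (adjusted p = 0.593) with all arrays and 0.90 ± 0.24 (adjusted p = 0.0187) without that one.

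Rps6, the small-subunit protein phosphorylated by the S6 kinases downstream of mTOR, was lower on its brightest probe set in myeloid progenitors without overlap in both genotypes. It read 567, 553 and 571 in FoxO-deficient myeloid progenitors, against 859.6, 864 and 774 in FoxO-deficient LSK cells. In wild-type cells it read 630.1, 688 and 628 in myeloid progenitors, against 838, 1816 and 900.4 in LSK cells, with array 2 the highest. The log2 changes were -0.56 ± 0.26 (adjusted p = 0.170) and -0.78 ± 0.26 (adjusted p = 0.0607), and without array 2 they were -0.55 ± 0.08 (adjusted p = 0.00121) and -0.42 ± 0.09 (adjusted p = 0.00951). Another Rps6 probe set, near background, averaged 8.96 in FoxO-deficient myeloid progenitors and 14.9 in FoxO-deficient LSK cells. In wild-type cells its direction was opposite, at 9.19 in myeloid progenitors and 5.05 in LSK cells.

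Rpl39l, a paralog of Rpl39 known for its expression in testis, was near background. It read 6.95, 11.2 and 4.96 in wild-type myeloid progenitors, where 1 of 3 arrays was above the background limit, against 18.7, 22.9 and 12.2 in wild-type LSK cells, where all 3 were. With 2 of those 3 myeloid progenitor arrays at background, the fitted log2 difference of -1.25 ± 0.35 (adjusted p = 0.0310) is not an exact measure. It was called in 11 of 20 alternatives, and was lost on leaving out array 1, 2, 7 or 9 and with a larger offset, no normalization, array weights, a mean-variance trend or a fit of those groups alone. In FoxO-deficient cells it was -0.78 ± 0.35 (adjusted p = 0.157). Rpl39, Rpl37 and Rps4l were about as dim, with group means between 8.43 and 20.7, and none of them passed a test.

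Most of the other named members were close between cell types. In wild-type cells Rps9, Rps14, Rps19 and Rps25 were not, and none of them was called. Their brightest probe sets averaged 5226, 3707, 4211 and 657 in wild-type myeloid progenitors, against 2073, 2050, 2918 and 414 in wild-type LSK cells. Array 2 was the low LSK array for each, at 299, 485, 1247 and 186. The stalk protein Rplp2 read 5289, 5160.0 and 5019.8 in FoxO-deficient myeloid progenitors, against 5326, 5326 and 5079 in FoxO-deficient LSK cells. Rplp0, the stalk base that is also used as an expression control, had a log2 change of 0.11 ± 0.20 in FoxO-deficient cells (adjusted p = 0.767) and of 0.30 ± 0.20 in wild-type cells (adjusted p = 0.329), or 0.06 ± 0.10 without array 2. The log2 changes of Rpl13a and Rps18 were at most 0.05 in absolute value in all 4 comparisons of 2 groups, on their brightest probe sets. Among the genes of human anaemias, Rps7, Rps10, Rps24 and Rps26 had log2 changes of at most 0.19 in absolute value (Rps10 in wild-type cells 0.19, and -0.02 without array 2), and Rpl11, which binds the p53 regulator Mdm2, had 0.06 ± 0.24 in FoxO-deficient and 0.11 ± 0.24 in wild-type cells, where the direction turned without array 2 (-0.19 ± 0.10). Rpl8, a core protein of the large subunit, did not overlap in either genotype, and had 0.13 ± 0.17 in FoxO-deficient and 0.39 ± 0.17 in wild-type cells (adjusted p = 0.649 and 0.147), the wild-type value being 0.20 ± 0.09 without array 2.

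Most called probe sets were dim. Tested on their own, 11 of 100 member probe sets passed in FoxO-deficient myeloid progenitors against LSK cells (14.6% of all probe sets) and 6 of 100 in wild-type cells (14.5%). Of the 68 with a mean intensity of at least 1000, a bound chosen after the data were seen, 2 passed in FoxO-deficient (10.4% of all such probe sets) and 1 in wild-type cells (9.85%), all of Rps27l. Of the 32 under 1000, 9 (14.9% of all such probe sets) and 5 (14.8%) passed. Without array 2 the counts were 19 of 100 in FoxO-deficient (30.6% of all) and 11 in wild-type cells (25.1%). Of these, 2 (32.5% of all such probe sets) and 2 (28%) had at least 1000, and 17 (30.5%) and 9 (24.9%) less. The median SD within groups was 0.11 log2 units for the brighter members and 0.40 for the dimmer ones.

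Several genes had probe sets on both sides, 14 of the 24 with more than 1 past the filter, and the sides disagreed for some. The dim Rps10 probe set read 48.3, 46.8 and 39.7 in FoxO-deficient myeloid progenitors, against 11.7, 8.02 and 11.8 in FoxO-deficient LSK cells, a log2 change of 2.11 ± 0.24 (adjusted p = 0.000323). The brightest Rps10 probe set read 3942, 4235 and 3719.7, against 3859, 4305 and 3935 (-0.02 ± 0.19, adjusted p = 0.947). So 1 gene gave a called rise on a dim probe set and none on the bright one.

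Rpl35 showed the same division. Its dim probe set read 115, 89.8 and 73.3 in FoxO-deficient myeloid progenitors, against 30.6, 41.6 and 39.6 in FoxO-deficient LSK cells (1.30 ± 0.31, adjusted p = 0.0201), and 75.7, 56.6 and 120.3 in wild-type myeloid progenitors, against 24.6, 16.7 and 25.5 in wild-type LSK cells (1.87 ± 0.31, adjusted p = 0.00370). The brightest stayed between 6332 and 7218 on all 12 arrays. Rps20 had a dim probe set that fell instead, to 88.3, 83.98 and 84.95 in FoxO-deficient myeloid progenitors, against 161, 153 and 179 in FoxO-deficient LSK cells (-0.94 ± 0.17, adjusted p = 0.00540).

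For Rps9 the 2 dim probe sets went opposite ways. One read 56.9, 59.98 and 76.9 in FoxO-deficient myeloid progenitors, against 23.8, 31.2 and 27.7 in FoxO-deficient LSK cells (1.22 ± 0.26, adjusted p = 0.0125). The other read 141, 120.4 and 163, against 235, 229.7 and 233 (-0.73 ± 0.18, adjusted p = 0.0229). The files do not say which transcript or pseudogene a probe set detects, and the source of the dim signals was not tested.

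**Figure D4:**
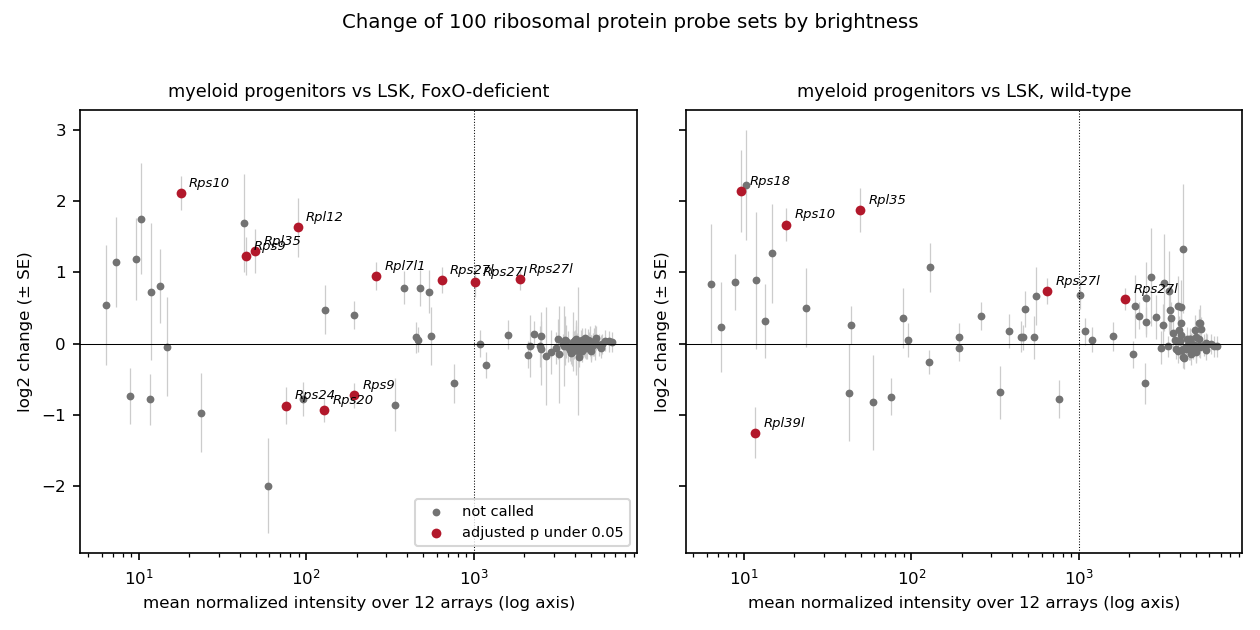
log2 change between myeloid progenitors and LSK cells (y, ± SE) of 100 ribosomal protein probe sets against mean normalized intensity over 12 arrays (x, log axis), in FoxO-deficient and wild-type cells; red, adjusted p under 0.05; dotted line, 1000. Right of the line the called points are those of Rps27l, and in wild-type cells Rps9 stands uncalled at 1.33 with array 2 in the fit; the other called probe sets lie left of the line.

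The mitochondrial ribosomal proteins, which build the separate ribosome of that organelle, were often called between cell types. Of 76 genes, 36 were called higher and 0 lower in FoxO-deficient myeloid progenitors against LSK cells, with a median log2 change of 0.74. In wild-type cells 41 were called higher and 0 lower, with a median of 0.87. Of all genes, 19.6% and 21.4% were called in either direction. Without array 2 the counts were 63 and 59 higher and 0 lower, against 38.4% and 34.9% of all genes in either direction. For FoxO loss 0 of the 76 were called in either cell type. The share of all genes called there was 1.84% in myeloid progenitors and 0.269% in LSK cells. The medians of the 76 were 0.01 in myeloid progenitors and 0.04 in LSK cells. The difference between the 2 families was not tested.

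Other ribosome and TOP mRNA genes, such as elongation factors, Npm1 and Tpt1, gave few calls. Of 18 tested, 0 passed for FoxO loss in either cell type, where 1.84% of all genes did in myeloid progenitors and 0.269% in LSK cells. Between cell types 1 of the 18 passed in FoxO-deficient cells (19.6% of all genes) and 0 in wild-type cells (21.4%). The initiation factor Eif3a was the gene called, higher in FoxO-deficient myeloid progenitors than in LSK cells (0.43 ± 0.13, adjusted p = 0.0496). Among 18 genes tested that bear on mTOR control of ribosomal protein synthesis, 1 rose and 1 fell with FoxO loss in myeloid progenitors. Of all genes, 1.84% were called in that test. Ddit4, an inhibitor of mTOR induced by stress, averaged 379.5 in FoxO-deficient myeloid progenitors and 1580.1 in wild-type myeloid progenitors (-2.06 ± 0.42, adjusted p = 0.0408), and Myc, an activator of ribosome production, averaged 328 and 163 in the same groups (1.01 ± 0.18, adjusted p = 0.0191).

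In LSK cells none of the 18 was called for FoxO loss, where 0.269% of all genes were. The FoxO effect on Myc differed between cell types (1.45 ± 0.25, adjusted p = 0.0291). That test called 1 of the 18, and 0.859% of all genes. The difference for Ddit4 was -2.79 ± 0.59 (adjusted p = 0.0743, and 0.000546 without array 2). Between cell types, Ddit4 and Sesn3 fell and Myc rose in FoxO-deficient myeloid progenitors against LSK cells, and Sesn1 and Sesn3 fell in wild-type ones. Of all genes, 19.6% were called in FoxO-deficient and 21.4% in wild-type cells. Without array 2 the list of 18 had 3 higher and 3 lower calls in each genotype. The share of all genes called was then 38.4% in FoxO-deficient and 34.9% in wild-type cells. Sesn3, which restrains mTOR and is a known FoxO target, averaged 55.0 in FoxO-deficient myeloid progenitors and 121 in FoxO-deficient LSK cells (-1.13 ± 0.18, adjusted p = 0.00173), and 50.8 in wild-type myeloid progenitors and 151 in wild-type LSK cells (-1.57 ± 0.18, adjusted p = 0.000254). For FoxO loss its log2 change was not called in myeloid progenitors (0.11 ± 0.18, adjusted p = 0.901) or in LSK cells (-0.32 ± 0.18, adjusted p = 0.515).

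**Figure D5:**
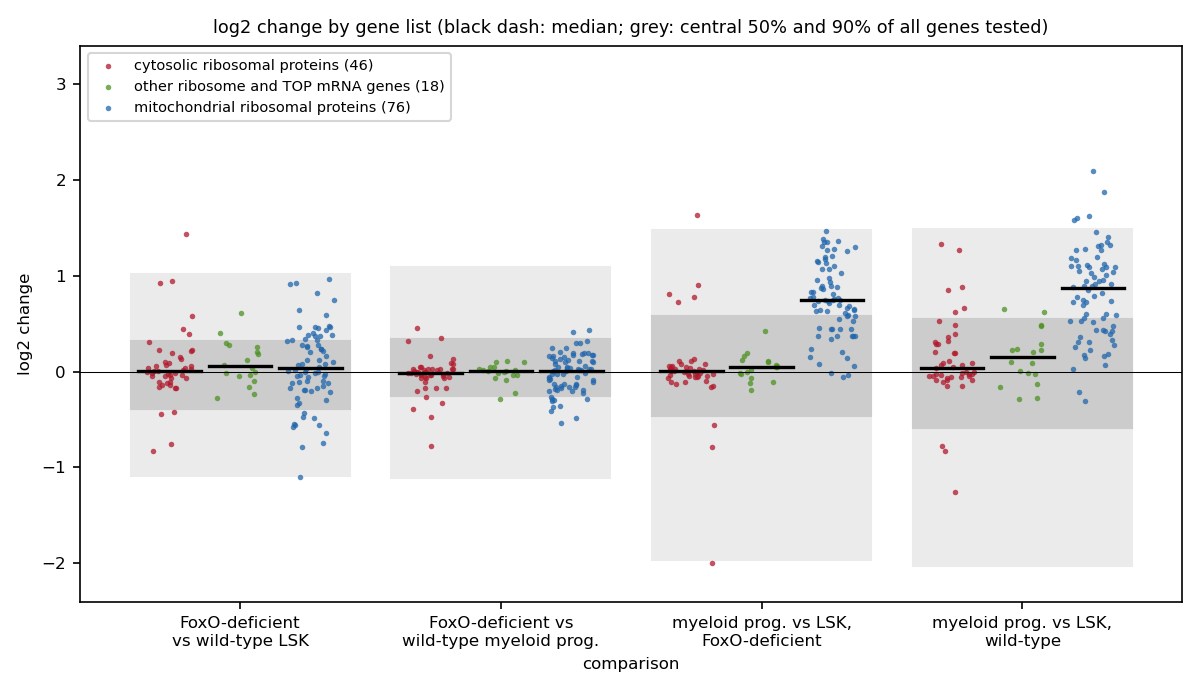
log2 change (y) of the genes of 3 lists in 4 comparisons (x): 46 cytosolic ribosomal proteins, 18 other ribosome and TOP mRNA genes and 76 mitochondrial ribosomal proteins; black dashes are medians, and grey bands hold the central 50% and 90% of all genes tested. The medians of the cytosolic members lie within 0.04 of 0 in all 4, and the mitochondrial ones have medians of 0.74 and 0.87 between cell types.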

How the data were processed

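RNA of sorted cells was measured on 12 Affymetrix 430 2.0 mouse arrays after amplification and labelling with the NuGEN Ovation system, per the labels' protocols. The authors deposited a table of linear intensity values, 1 per probe set and array; the summarisation software and any scaling are not given in the sources used here, and array medians of 8 to 13.5 showed that arrays were not yet equalised. Genes were named from the platform annotation, with symbols updated through RefSeq.

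To each value 0.6 (the 10th percentile of all values) was added, log2 was taken and arrays were quantile-normalized. Probe sets above the 40th percentile of their array on at least 3 arrays were kept (31779 of 45101), and the brightest kept probe set stood for a gene (13732 genes). R 4.3.3 and limma 3.58.1 (lmFit and eBayes, two-sided, 8 residual degrees of freedom) were fitted on all 12 arrays with 1 mean per group, with Benjamini-Hochberg adjustment over all genes, or over all kept probe sets. The offset makes log2 changes of dim probe sets smaller. Errors are SE of the log2 change; the background limit of an array is the highest normalized intensity among its 27 bacterial control probe sets. Arrays give no read depth, and their number limits the precision.

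The text names genes called in any test, the 10 largest changes per test, paralog pairs, stalk proteins, genes of human anaemias and usual expression controls; Rpl8, Rpl35, Rps20, the other genes listed because groups did not overlap, and single dim probe sets were named after their values were seen. The members, the gene lists and these rules were chosen with earlier results of these data known. Other offsets, filters, scalings, probe set rules, weights and each array in turn were tried. Group means are means of log2 values, given as intensity.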

Additional observations from a re-analysis of the deposited data

How the results depend on the processing

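No called change of a named ribosomal protein gene reversed under the alternatives that gave 1 value per gene. The direction of called dim probe sets and of genes of the other lists was not followed through all alternatives. The near-zero, untested medians did change sign between settings. Under median scaling the median log2 change of the 46 ribosomal protein genes was -0.22 for FoxO loss in LSK cells, -0.16 in myeloid progenitors and 0.081 for their difference, and 0.16 between cell types in FoxO-deficient and 0.14 in wild-type cells, where 5 genes were called (24.6% of all genes). With no normalization these medians were 0.082 for FoxO loss in LSK cells, -0.085 for the difference and 0.14 in wild-type cells (1 called, 13.4% of all), with all-gene medians of 0.24, -0.07 and 0.12. With the mean of a gene's probe sets they were 0.057, -0.10 and 0.11. With array weights they were -0.00956, -0.00888 and 0.00533, and 1 gene (Rpl14) was called for FoxO loss in myeloid progenitors (8.96% of all) and 5 between cell types in FoxO-deficient cells (39.6%). Testing every probe set gave 11 calls in FoxO-deficient cells (14.6% of all probe sets) and 6 in wild-type cells (14.5% of all probe sets, median of the members 0.076). Fitting only the groups compared gave 5 (34.5%) and 0 (8.01%). The cause was not tested.

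Leaving out 1 array at a time, the medians ran from -0.021 to 0.019 and from -0.027 to -0.0036 for FoxO loss in LSK cells and myeloid progenitors, from -0.034 to -0.0063 for the difference, and from -0.0094 to 0.010 in FoxO-deficient and 0.0061 to 0.059 in wild-type cells between cell types. The calls ran from 0 to 0, 0 to 1, 0 to 0, 1 to 5 and 1 to 3 in that order. The share of all genes called moved over the same runs. In that order it ran from 0.0663% to 0.989%, 0.978% to 8.88%, 0.412% to 3.51%, 14% to 38.4% and 15% to 34.9%. No paired analysis was possible because the groups share no replicate numbers in the labels. With 3 arrays a group, dim members (median SD 0.40) are the least precise.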
